A study of Homo sapiens with 36 samples.

Results

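The proteasome subunit genes are the genes whose annotated symbol starts with PSMA, PSMB, PSMC, PSMD or PSME followed by a number, each represented by 1 probe set, that of the highest mean signal on the log2 scale. By this rule 35 genes, carried on 57 probe sets, were found among the 11963 genes that the probe sets name singly (0.293%). PSMC3IP and PSME3IP1 share the prefix but encode no proteasome subunit and were left out, and PSMA6 and PSME2 lay only on probe sets annotated to more than 1 gene and were not analysed. The members were 13 genes of the 20S core (6 α and 7 β genes), 2 inducible β genes (PSMB8 and PSMB10), 14 genes of the 19S regulatory particle (5 ATPases, 3 other base subunits and 6 lid subunits), 3 chaperones of the base (PSMD5, PSMD9 and PSMD10) and 3 activators (PSME1, PSME3 and PSME4). PSMC5, PSMD7 and PSMD13, also genes of the regulatory particle, were not among the members.

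The proteasome degrades proteins that carry ubiquitin. Its 20S core is a barrel in which outer rings of α subunits gate the channel and inner rings of β subunits hold the proteolytic sites, and the 19S regulatory particle binds ubiquitin chains, removes them and unfolds the substrate with its ring of ATPases. Its subunit genes are widely known to be expressed together, with the transcription factors NFE2L1 and NFE2L2 acting through antioxidant response elements. NFYB is a subunit of NF-Y, the trimeric factor that binds CCAAT boxes, and E2F1 activates genes of DNA replication and of apoptosis.

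RNA came from U2OS ER-HA-E2F1 cells, a human osteosarcoma line with a stably expressed fusion of E2F1 to a tamoxifen-responsive estrogen receptor domain, which enters the nucleus when 4-hydroxytamoxifen (OHT) is added. Cells received 1 of 4 siRNAs, of which Ambion and Dharmacon supplied those against NFYB and Sigma-Aldrich and Dharmacon the negative controls, and were deprived of serum 18 h later for 24 h. OHT at 80 nM in serum-free medium was then present for 0, 4 or 8 h. Each of the 12 combinations of siRNA and time had 3 biological replicates, so that each arm held 6 arrays per time. All groups carried the fusion protein and all 4 h and 8 h samples had OHT, so effects of E2F1, of OHT itself and of longer serum deprivation cannot be told apart.

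The targeted gene followed the labels: NFYB signal was 53.9 to 81.7 in NFYB siRNA cells and 161 to 203 in control siRNA cells at 0 h, 57 to 159 and 389 to 491 at 4 h, and 74.1 to 187 and 579 to 717 at 8 h. Of 36 arrays 34 correlated best with an array of their own condition, and array medians lay between 100 and 120. Of the 7 mesenchymal markers 5 lay above the middle of all probe sets, while COL1A2 (17.5) and RUNX2 (13) lay among the values of the leukocyte markers, which ranged from 2.55 to 59.4. Endothelial markers ranged from 5.49 to 31.5 and epithelial markers from 1.12 to 328. The summed signal of the 7 leukocyte markers measured was 181 to 248 in NFYB siRNA cells and 168 to 296 in control siRNA cells at 8 h, and no marker of the 4 lists was called with knockdown at that time. All 35 members lay in the upper 60% of probe sets by mean signal, so in comparisons of whole arms or times the share of all probe sets called is given together with the share among those brighter ones. Comparisons of single siRNAs are given with the share of all probe sets, apart from those against each control siRNA alone. Signals are relative within an array, and more transcript per cell and more cells with the transcript cannot be told apart in them.

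With NFYB siRNA, some genes of the 20S core had higher levels after 8 h of OHT, and no member had a called decrease. PSMA5 was higher by a log2 fold change of 0.52, PSMB2 by 0.47 and PSMA2 by 0.34, and PSMB7, PSMB3 and PSMB6 were higher by 0.29, 0.26 and 0.26. The 6 called members are 2 α genes, which form the gate of the core, and 4 β genes, among them the trypsin-like PSMB7 and the caspase-like PSMB6. These are 6 of 35 members (17.1%), beside 2.18% of all probe sets called higher and 3.53% of the brighter ones in limma, at an adjusted p under 0.05. None was called lower (1 at an unadjusted p under 0.05), beside 2.46% of all probe sets and 3.87% of the brighter ones. The median change of the 35 members was 0.12, against -0.03 over all probe sets, and 29 of 35 lay above 0, beside 46% of all probe sets.

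PSMA5 encodes an α subunit. Its signal ranged from 3565 to 5212 in NFYB siRNA cells at 8 h, with a median of 4579, against 2587 to 3455 in control siRNA cells, with a median of 3168. No array of one arm overlapped the other, and within the NFYB arm the Ambion arrays (4193, 3732 and 3565) lay below the Dharmacon arrays (5212, 4964 and 5082). The log2 fold change of 0.52 had an SE of 0.0885 and an adjusted p of 0.00022 (limma, n = 6 per arm). At 4 h the arms were also apart, at 4170 to 5072 with NFYB siRNA (median 4296) and 3182 to 3861 with control siRNA (median 3346), with a log2 fold change of 0.38 (adjusted p = 0.00965 in limma). At 0 h they overlapped, at 4655 to 6048 with NFYB siRNA (median 5290) and 4045 to 5796 with control siRNA (median 4729), and the change of 0.15 was not called (adjusted p = 0.446 in limma).

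PSMB2, a β subunit without proteolytic activity, was higher at all 3 times. At 8 h its signal was 4567 to 6119 with NFYB siRNA (median 5546) and 3618 to 4256 with control siRNA (median 3844), with an adjusted p of 1.1e-05 in limma (SE 0.0666). At 0 h it was 6060 to 6910 with NFYB siRNA (median 6230) and 4705 to 5472 with control siRNA (median 4899), a log2 fold change of 0.34 (adjusted p = 0.00143 in limma), and at 4 h 4629 to 5625 (median 5106) and 3943 to 4249 (median 4123), a change of 0.31 (adjusted p = 0.00399 in limma). At each time every NFYB siRNA array was above every control siRNA array. A second, dimmer PSMB2 probe set (geometric mean signal 186, against 4910) went the other way at 8 h, with -0.46 (adjusted p = 0.0361 in limma). With all probe sets of a gene averaged, PSMB2 stood at 0.01 at 8 h (adjusted p = 0.978 in limma), so its call at 8 h rests on the brighter probe set. At 0 h the dimmer probe set stood at 0.08 (adjusted p = 0.854 in limma) and the average at 0.21 (adjusted p = 0.13 in limma), so that call was lost too, while the call at 4 h was kept (0.38, adjusted p = 0.00194 in limma).

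PSMA2, another α subunit, also separated the arms at 0, 4 and 8 h. Its signal at 8 h was 6293 to 6974 with NFYB siRNA (median 6678) and 4884 to 5704 with control siRNA (median 5192), with an adjusted p of 5.05e-05 in limma (SE 0.0522). The changes at 0 h and 4 h were 0.22 (7856 to 8540, median 8289, against 6710 to 7673, median 6876) and 0.25 (6275 to 7430, median 6938, against 5514 to 6043, median 5715), with adjusted p of 0.00944 and 0.00282 in limma. The PSMA2 call at 8 h was made in every one of the 55 alternative fits run for it, although a second, dimmer probe set stood at 0.03 (adjusted p = 0.911 in limma). With all probe sets averaged the changes at 0 h and 4 h were 0.12 and 0.16 and were not called (adjusted p = 0.235 and 0.0837 in limma). Both were also lost with only the groups compared (adjusted p = 0.073 and 0.0524 in limma) and by the methods' t-test on log2 signal (adjusted p = 0.0594 and 0.0836 over all probe sets), and the one at 4 h with Ambion NFYB siRNA alone (adjusted p = 0.0533 in limma).

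PSMB7 ranged from 3679 to 4333 with NFYB siRNA (median 3983) and from 2969 to 3676 with control siRNA (median 3188) at 8 h, with an adjusted p of 0.011 in limma. PSMB6 ranged from 2932 to 3312 with NFYB siRNA (median 3174) and from 2330 to 2876 with control siRNA (median 2647), with an adjusted p of 0.00911 in limma. In both genes the 6 NFYB siRNA arrays lay above all control siRNA arrays at 8 h. PSMB3, a β subunit without proteolytic activity, overlapped between arms (6610 to 8410, median 7391, with NFYB siRNA, and 5517 to 7286, median 6169, with control siRNA; adjusted p = 0.0271 in limma). The PSMB3 call was lost without any of 6 single arrays, which are Dharmacon control replicate 1, Sigma-Aldrich control replicates 1 and 2 and all 3 Dharmacon NFYB replicates at 8 h (adjusted p = 0.0506 to 0.0923 in limma), and with siRNA as a random block (adjusted p = 0.0657 in limma).

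PSMB5, the chymotrypsin-like subunit and the main site of bortezomib, did not share this pattern. Its signal at 8 h was 1469 to 2241 with NFYB siRNA (median 1758) and 1656 to 2073 with control siRNA (median 1933), a log2 fold change of -0.06 (95% interval -0.24 to 0.11, adjusted p = 0.795 in limma). The inducible PSMB8, which replaces PSMB5 in the immunoproteasome, was 988 to 1173 with NFYB siRNA (median 1047) and 889 to 1046 with control siRNA (median 949), a change of 0.14 that was not called (adjusted p = 0.299 in limma). PSMB10, the inducible counterpart of PSMB7, stood at 0.29 (adjusted p = 0.278 in limma).

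**Figure D1:**
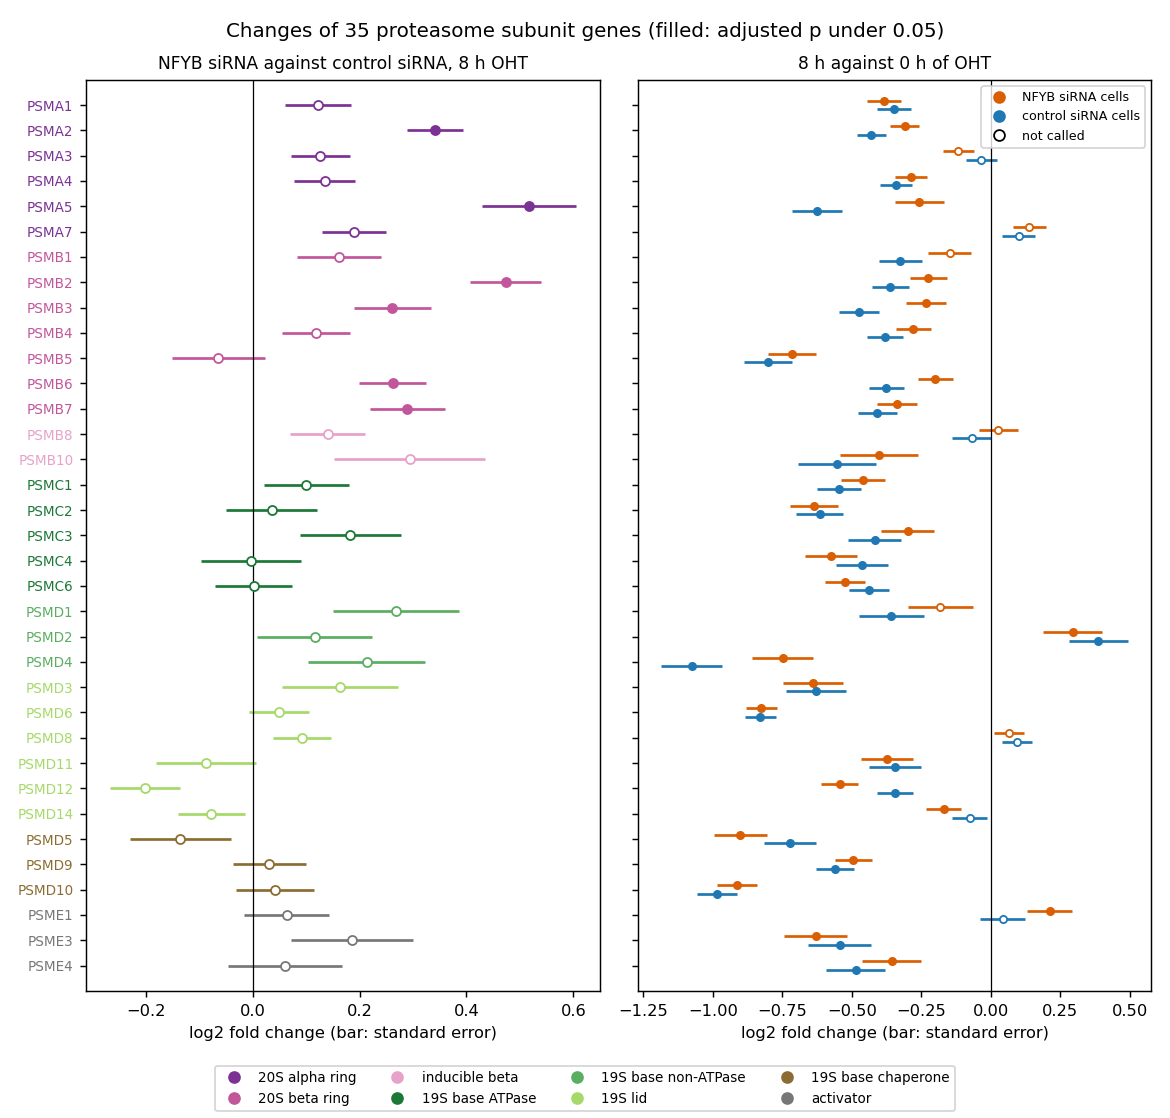
Log2 fold change of each of the 35 genes (vertical axis, coloured by subunit group) with NFYB siRNA against control siRNA at 8 h of OHT (left) and at 8 h against 0 h of OHT in NFYB siRNA cells (orange) and control siRNA cells (blue) (right). Points are limma estimates from 6 arrays per group, bars are standard errors and filled points passed an adjusted p under 0.05, as 6 core genes did on the left.

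The promoters of 4 of the 6 called genes are shown, and that of PSMB5, a catalytic subunit that was not called. Whether the motifs bear on the changes was not tested. Each is the 150 bases before the RefSeq start site on GRCh38.p14, read 5′ to 3′ on the strand of the gene, with matches to the motifs named below in capitals. They are PSMA5 (chr1:109426449-109426598, minus strand), PSMA2 (chr7:42932175-42932324, minus strand), PSMB3 (chr17:38752591-38752740, plus strand), PSMB2 (chr1:35641527-35641676, minus strand) and PSMB5 (chr14:23034901-23035050, minus strand).
PSMA5: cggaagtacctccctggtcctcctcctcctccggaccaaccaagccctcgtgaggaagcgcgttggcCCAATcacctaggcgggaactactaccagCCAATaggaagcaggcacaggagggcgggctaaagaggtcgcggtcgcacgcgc
PSMA2: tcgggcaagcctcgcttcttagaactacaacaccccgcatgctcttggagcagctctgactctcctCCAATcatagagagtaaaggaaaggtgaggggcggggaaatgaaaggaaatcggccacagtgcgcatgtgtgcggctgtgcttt
PSMB3: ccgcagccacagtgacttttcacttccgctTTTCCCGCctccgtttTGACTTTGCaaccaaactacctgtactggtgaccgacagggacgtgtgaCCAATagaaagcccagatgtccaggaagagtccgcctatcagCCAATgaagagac
PSMB2: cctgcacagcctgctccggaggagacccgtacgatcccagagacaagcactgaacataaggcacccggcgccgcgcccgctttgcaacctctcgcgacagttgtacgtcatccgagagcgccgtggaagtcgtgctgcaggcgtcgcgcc
PSMB5: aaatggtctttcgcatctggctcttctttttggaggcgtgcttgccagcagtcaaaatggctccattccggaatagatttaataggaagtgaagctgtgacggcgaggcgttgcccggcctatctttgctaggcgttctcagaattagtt
The motifs were CCAAT (the NF-Y box), the E2F sites TTTGGCGC, TTTCCCGC, TTTGCCGC and TTTCGCGC, and TGACNNNGC, the core of the antioxidant response element, each searched on both strands in a window of 250 bases before to 50 bases after the start.

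PSMA5 held CCAAT at 83 and 54 bases before its start, PSMA2 at 84 and PSMB3 at 55 and 13. PSMB3 also held TTTCCCGC at 120 and TGACTTTGC at 104 bases before the start. PSMB2 had no match in the stretch shown and 1 CCAAT beginning 2 bases before its start, and PSMB5 had no match to any of these motifs. Among other members not called with knockdown at 8 h, CCAAT was present in some, such as PSMA3, PSMA4, PSMC2, PSMC3 and PSMD14. It was absent from others, such as PSMA1, PSMC4 and PSMD1. A window was found for 30 of the 35 members and was missing for PSMA7, PSMB1, PSMB6, PSMB7 and PSMD4. CCAAT was present in 14 of the 30 (46.7%), in 6 of 9 core genes and in 6 of 13 regulatory particle genes, beside 34.6% of 35116 RefSeq windows. Those windows were not limited to genes on the array or of like signal. An E2F site was present in 4 of 30 (13.3%), beside 3.31% of all windows, and the response element core in 10 of 30 (33.3%), beside 13.3%. In PSMD14 matches on the 2 strands overlap. A match is a description of the sequence only.

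Before and early after OHT the members called with knockdown were also core genes. At 0 h PSMB2, PSMA2 and PSMA3 were called higher and no member lower (3 and 0 of 35, beside 1.58% and 2% of all probe sets and 2.39% and 3.14% of the brighter ones; none lower at an unadjusted p under 0.05 in limma). At 4 h PSMA5, PSMB2, PSMA2 and PSMA7 were called higher and no member lower (4 and 0 of 35, beside 1.48% and 1.45% of all and 2.36% and 2.27% of the brighter probe sets; 1 lower at an unadjusted p under 0.05 in limma). The medians over the members were 0.06 at 0 h and 0.11 at 4 h, against 0.00 and -0.01 over all probe sets, and 26 of 35 lay above 0 at both times, beside 50.2% and 48.4% of all probe sets. PSMA3, an α subunit, was 7955 to 8203 with NFYB siRNA (median 8029) and 6290 to 7781 with control siRNA (median 6904) at 0 h, a change of 0.21 (adjusted p = 0.024 in limma). That call was lost without any of 4 single arrays, which are Dharmacon control replicate 2, Sigma-Aldrich control replicates 1 and 3 and Dharmacon NFYB replicate 2 at 0 h. PSMA7, also an α subunit, was 7627 to 9024 with NFYB siRNA (median 8230) and 6556 to 7755 with control siRNA (median 7060) at 4 h, a change of 0.21 with an adjusted p of 0.0474 in limma that was lost in 21 of 36 fits without 1 array.

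Counted without the fit, all 6 NFYB siRNA arrays lay above all 6 control siRNA arrays for 5 members at 0 h (PSMA1, PSMA2, PSMA3, PSMA7 and PSMB2), 3 at 4 h (PSMA2, PSMA5 and PSMB2) and 5 at 8 h (PSMA2, PSMA5, PSMB2, PSMB6 and PSMB7), beside 1.05%, 0.99% and 1.63% of all probe sets and 1.61%, 1.55% and 2.6% of the brighter ones. All of these are core genes. No member had all NFYB siRNA arrays below all control siRNA arrays at 0, 4 or 8 h, beside 1.45%, 1.17% and 1.82% of all probe sets and 2.25%, 1.8% and 2.87% of the brighter ones.

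**Figure D2:**
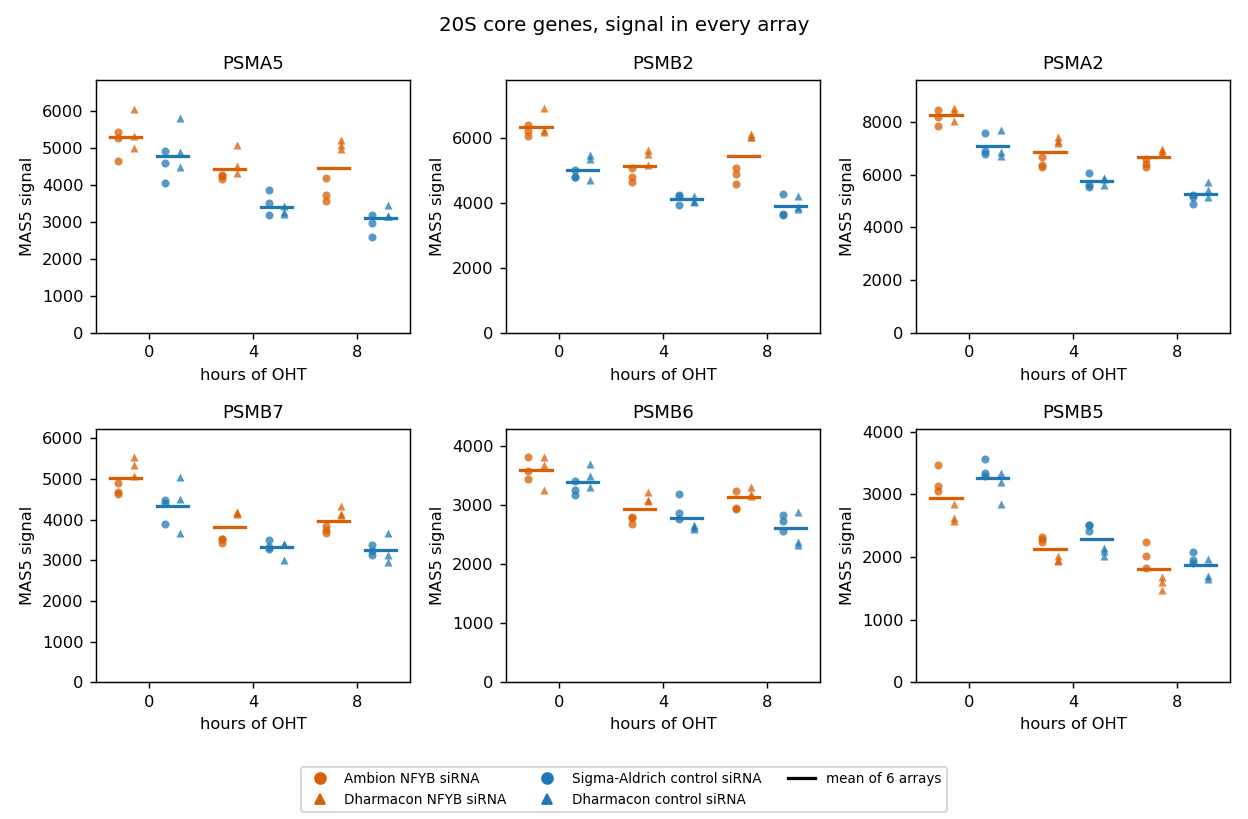
MAS5 signal (vertical axes, from 0) of 6 core genes in each array against hours of OHT, with NFYB siRNA arrays (orange) left of control siRNA arrays (blue); circles are Ambion and Sigma-Aldrich siRNAs, triangles Dharmacon siRNAs, and lines means of 6 arrays. At 8 h the orange and blue points are apart for PSMA5, PSMB2, PSMA2, PSMB7 and PSMB6 and overlap for PSMB5, and the Dharmacon NFYB points lie above the Ambion ones for PSMA5 and PSMB2.

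In the fit of pooled arms with 6 groups, no gene outside the core was called with knockdown on its brightest probe set. Of the 14 genes of the regulatory particle none was called higher or lower at 0, 4 or 8 h in limma, with changes at 8 h between -0.20 for PSMD12, a lid subunit, and 0.27 for PSMD1, a scaffold of the base. This depended on the fit and on the control siRNA. With 12 groups PSMD12 was called lower at 8 h (adjusted p = 0.012 in limma). Against Sigma-Aldrich control siRNA alone, 4, 5 and 7 of these 14 were called higher at 0, 4 and 8 h. The core genes called higher there were 4, 3 and 7. Against Dharmacon control siRNA alone 0, 2 and 0 of the 14 were higher. The counts against each control siRNA alone are given without the share of all probe sets called, so no excess over that share is read from them. PSMC1 was lower there at 0 h, and PSMD12 and PSMD14 at 8 h. PSMD12 was 2077 to 2412 with NFYB siRNA (median 2177) and 2401 to 2705 with control siRNA (median 2480) at 8 h, which overlap at the edge, and its adjusted p was 0.0677 in limma. It was called lower in 5 of 16 alternatives, namely after quantile normalization, among the brighter 60% of probe sets, with 12 groups, with Dharmacon NFYB siRNA alone and with Dharmacon control siRNA alone (adjusted p = 0.012 to 0.0445 in limma), and also without Ambion NFYB replicate 1 at 0 h or replicate 3 at 8 h (adjusted p = 0.0382 and 0.0404 in limma). A second, dimmer PSMD12 probe set (signal 425) stood at 0.14 at 8 h (adjusted p = 0.752 in limma). With all probe sets averaged PSMD12 stood at -0.03 (adjusted p = 0.91 in limma). The ATPases PSMC1, PSMC2, PSMC3, PSMC4 and PSMC6 lay between -0.00 and 0.18 and the 6 lid genes between -0.20 and 0.16. The 3 base chaperones lay between -0.13 and 0.04, and the 3 activators between 0.06 and 0.19. The median at 8 h was 0.19 for the 13 core genes, of which 12 lay above 0, and 0.07 for the 14 regulatory particle genes, of which 10 did.

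For each array the mean log2 signal of the 14 regulatory particle genes, each centred on its mean over all arrays, was subtracted from that of the 13 core genes. At 8 h this difference was 0.13 ± 0.0508 in NFYB siRNA cells (SD, n = 6, from 0.06 to 0.18) and -0.04 ± 0.107 in control siRNA cells (from -0.19 to 0.07), and 5 of 6 NFYB siRNA arrays lay above all control siRNA arrays. At 0 h the values were -0.02 ± 0.0845 in NFYB siRNA cells and -0.07 ± 0.114 in control siRNA cells, and at 4 h 0.02 ± 0.0613 and -0.03 ± 0.0718. The arms thus differed by 0.06, 0.05 and 0.16 at 0, 4 and 8 h. No p is given for this score, because its genes were chosen with results of these arrays known.

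The 2 control siRNAs differed in the score as much as the arms did. At 8 h it was 0.17 ± 0.0086 with Ambion NFYB siRNA, 0.08 ± 0.0256 with Dharmacon NFYB siRNA, 0.05 ± 0.0309 with Sigma-Aldrich control siRNA and -0.12 ± 0.0722 with Dharmacon control siRNA (SD, n = 3 each). The Dharmacon NFYB arrays (0.06 to 0.11) and the Sigma-Aldrich control arrays (0.01 to 0.07) overlapped. The core mean alone was -0.00 in NFYB siRNA cells and -0.23 in control siRNA cells at 8 h, and the regulatory mean -0.13 and -0.19, with the regulatory mean at -0.25 with Ambion and -0.01 with Dharmacon NFYB siRNA.

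**Figure D3:**
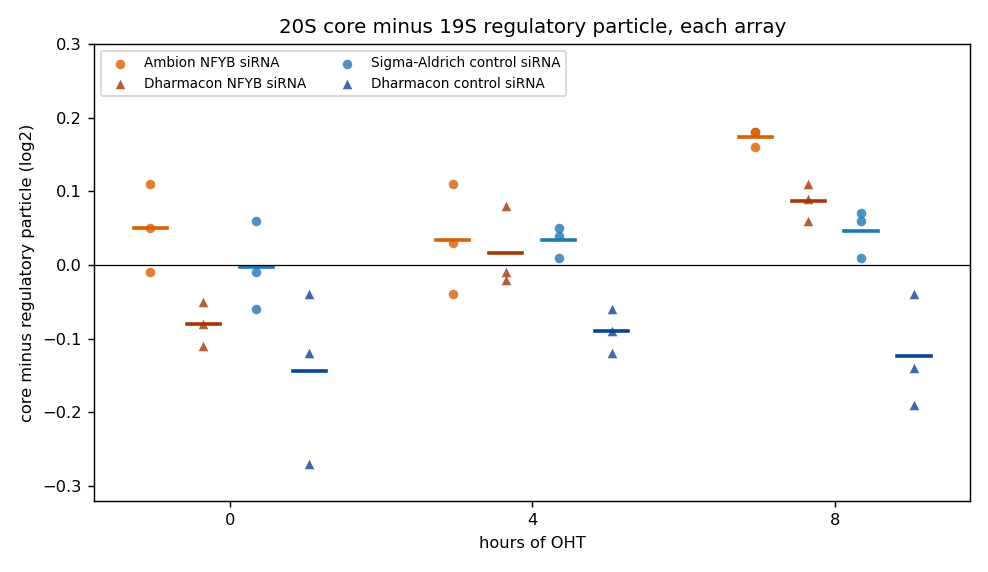
Mean log2 signal of 13 core genes minus that of 14 regulatory particle genes (vertical axis, each gene centred over all arrays) in each array against hours of OHT, by siRNA; bars are means of 3 arrays. At 8 h the Ambion NFYB arrays (0.16 to 0.18) are highest and the Dharmacon control arrays (-0.19 to -0.04) lowest.

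The siRNAs against NFYB changed the proteasome genes to different extents. In a fit with 12 groups, Dharmacon NFYB siRNA gave 19 members higher and 2 lower at 8 h against the pooled controls (beside 7.2% and 8.79% of all probe sets), and Ambion NFYB siRNA 4 higher and none lower (beside 3.69% and 3.71%). The 4 called with Ambion NFYB siRNA were PSMA2, PSMA5, PSMB2 and PSMB6, and all of them were also called with Dharmacon NFYB siRNA. Of the core genes 11 were called higher with the Dharmacon and 4 with the Ambion siRNA, and of the regulatory particle genes 7 and 0. The 7 were the ATPases PSMC1 and PSMC3, the base subunits PSMD1, PSMD2 and PSMD4 and the lid subunits PSMD3 and PSMD6. The 2 members lower with the Dharmacon siRNA were PSMB5 and PSMD12. At 0 h the counts were 9 higher and 2 lower with the Dharmacon siRNA (beside 5.83% and 7.23% of all probe sets) and 3 and 0 with the Ambion siRNA (beside 3.43% and 3.63%). At 4 h they were 17 and 2 with the Dharmacon siRNA (beside 5.75% and 7.26%) and 2 and 0 with the Ambion siRNA (beside 3.12% and 2.71%). Both siRNAs were compared with the same control arrays.

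The difference between the NFYB siRNAs was tested directly. At 8 h Ambion minus Dharmacon NFYB siRNA gave 11 members lower and 1 higher (beside 3.67% and 5.05% of all probe sets in limma), with a median of -0.19 over the members and 0.02 over all probe sets. PSMD4, the ubiquitin receptor of the base, was lower with the Ambion siRNA by a log2 difference of -0.57 (1803, 1560 and 1672 with Ambion, 2396, 2422 and 2672 with Dharmacon NFYB siRNA; adjusted p = 0.000271 in limma). PSMD1 differed by -0.47 (adjusted p = 0.00107 in limma), PSMA5 by -0.41 (adjusted p = 0.00435 in limma) and PSMB2 by -0.32 (adjusted p = 0.00161 in limma). PSMB5 went the other way, at 1832, 2009 and 2241 with Ambion and 1469, 1684 and 1596 with Dharmacon NFYB siRNA, a difference of 0.35 (adjusted p = 0.00163 in limma). For PSMA2, PSMB6 and PSMB7 the difference at 8 h was -0.10, -0.08 and -0.16 and was not called (adjusted p = 0.345, 0.575 and 0.247 in limma).

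The control siRNAs differed as well, at 8 h and 0 h mostly in the regulatory particle. Sigma-Aldrich minus Dharmacon control siRNA at 8 h gave 9 members lower and none higher (beside 5.48% and 7.04% of all probe sets in limma). Of the 14 regulatory particle genes 8 were lower, with PSMD1 at -0.52, PSMD3 at -0.44 and PSMC3 at -0.41, and the ninth member was PSME4, a nuclear activator, at -0.48. None of the 13 core genes was called between the control siRNAs at 8 h. At 0 h the same comparison gave 6 lower and 1 higher (beside 6.86% and 7.06% of all probe sets), 5 of the 6 in the regulatory particle. At 4 h it gave 2 lower (PSMC1 and PSMD3) and 3 higher (PSMB5, PSMB10 and PSMD9), beside 5.57% and 7.79% of all probe sets.

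**Figure D4:**
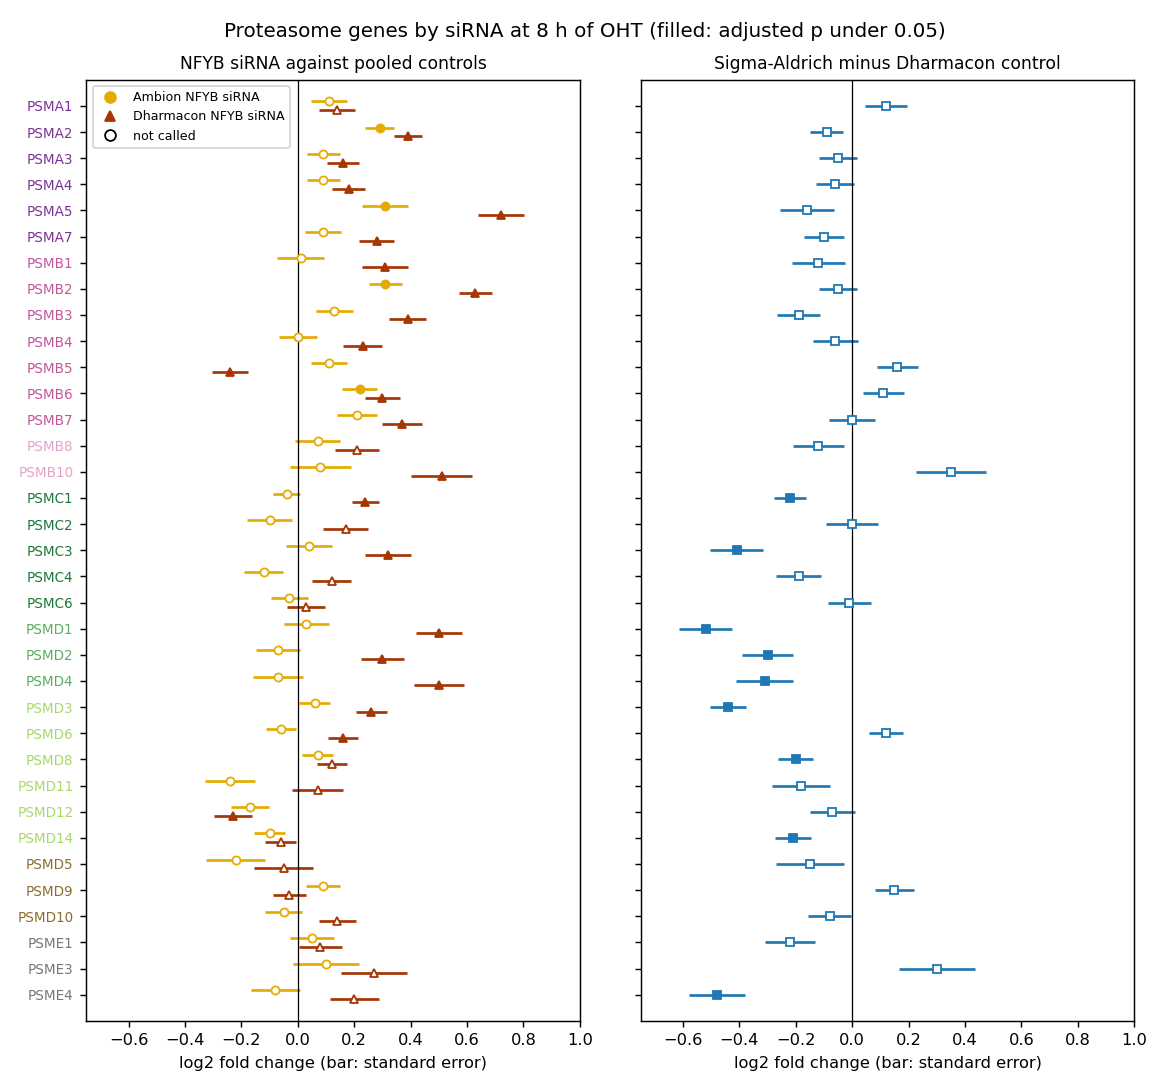
Log2 fold change of each of the 35 genes at 8 h of OHT for Ambion (circles) and Dharmacon (triangles) NFYB siRNA against the pooled control arrays (left) and for Sigma-Aldrich minus Dharmacon control siRNA (right), 3 arrays per siRNA, with standard errors; filled points passed an adjusted p under 0.05. On the left 19 triangles are filled to the right of 0 and 4 circles, and on the right 9 points are filled, 8 of them in the regulatory particle.

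With OHT most proteasome genes went down in control siRNA cells. After 8 h 28 of 35 members were lower than at 0 h and 1 was higher, beside 29.6% and 20.3% of all probe sets and 44% and 28.2% of the brighter ones in limma. After 4 h 30 were lower and none higher (none at an unadjusted p under 0.05), beside 23.3% and 16.1% of all probe sets and 35.1% and 23% of the brighter ones. The median change of the members was -0.30 at 4 h and -0.42 at 8 h, against -0.11 and -0.10 over all probe sets and -0.16 and -0.21 over the brighter ones. Of the cell type markers 3 mesenchymal, 2 epithelial and 2 endothelial genes were lower and 1 epithelial gene was higher at 8 h, and no leukocyte marker was called. The summed mesenchymal signal was 29968 to 34307 at 8 h and 34102 to 41181 at 0 h, the leukocyte sum 168 to 296 and 149 to 257, the epithelial sum 403 to 489 and 286 to 470, and the endothelial sum 53 to 120 and 112 to 200. Their part in the result was not tested. For 22 members all 8 h arrays lay below all 0 h arrays, beside 19.6% of all probe sets and 30.4% of the brighter ones.

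The 3 greatest decreases at 8 h were in genes of the regulatory particle and its chaperones. PSMD4 in control siRNA cells was 3448 to 4192 at 0 h (median 3658), 2188 to 2807 at 4 h (median 2435) and 1455 to 2316 at 8 h (median 1747), which is -1.08 on the log2 scale at 8 h (SE 0.109, limma adjusted p = 8.57e-11). PSMD10, a chaperone of the base known as gankyrin, was 1248 to 1354 (median 1326), 680 to 836 (median 723) and 586 to 716 (median 670) at the same times, a change of -0.98 (adjusted p = 1.95e-14 in limma). Most of the decrease of PSMD10 was present at 4 h, where its change was -0.83. PSMD6, a lid subunit, was 2616 to 2987 (median 2824), 1889 to 2024 (median 1966) and 1459 to 1668 (median 1607), a change of -0.83 (adjusted p = 2.04e-15 in limma). The catalytic PSMB5 was 2849 to 3568 (median 3312), 2016 to 2507 (median 2277) and 1656 to 2073 (median 1933), a change of -0.80 (adjusted p = 4.42e-10 in limma). In each of these 4 genes the arrays at 8 h did not overlap those at 0 h.

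The other catalytic subunits changed less. PSMB6 was 3178 to 3701 at 0 h (median 3362), 2592 to 3180 at 4 h (median 2716) and 2330 to 2876 at 8 h (median 2647) in control siRNA cells, with a change of -0.38 at 8 h (adjusted p = 2.72e-06 in limma). PSMB7 was 3667 to 5043 (median 4453), 3000 to 3498 (median 3360) and 2969 to 3676 (median 3188) at these times, with a change of -0.41 (adjusted p = 5.51e-06 in limma). PSMB8 was 917 to 1064 (median 1003), 755 to 954 (median 870) and 889 to 1046 (median 949), and its change of -0.07 at 8 h was not called (adjusted p = 0.445 in limma) and had the opposite sign, 0.02, with array medians centred.

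PSMD2, a scaffold of the base, was the member called higher. In control siRNA cells its signal was 4320 to 6370 at 0 h (median 5134), 4944 to 6189 at 4 h (median 5910) and 5785 to 7888 at 8 h (median 6858), and the change at 8 h was 0.39 (SE 0.107, adjusted p = 0.00242 in limma). Its arrays at 8 h and 0 h overlapped. PSMA3, PSMA7, PSMB8, PSMD8, PSMD14 and PSME1 had no called change at 8 h, with values between -0.08 for PSMD14, the lid deubiquitinase, and 0.10 for PSMA7.

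By group, 11 of 13 core genes and 11 of 14 regulatory particle genes were lower at 8 h in control siRNA cells, with medians of -0.38 and -0.43. Of all probe sets 29.6% were called lower, and of the brighter ones 44%. All 7 β genes and all 5 ATPases among the members were lower, as were all 3 base chaperones (median -0.72). The score of core minus regulatory particle moved by 0.03 in control siRNA cells and by 0.14 in NFYB siRNA cells between 0 h and 8 h.

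**Figure D5:**
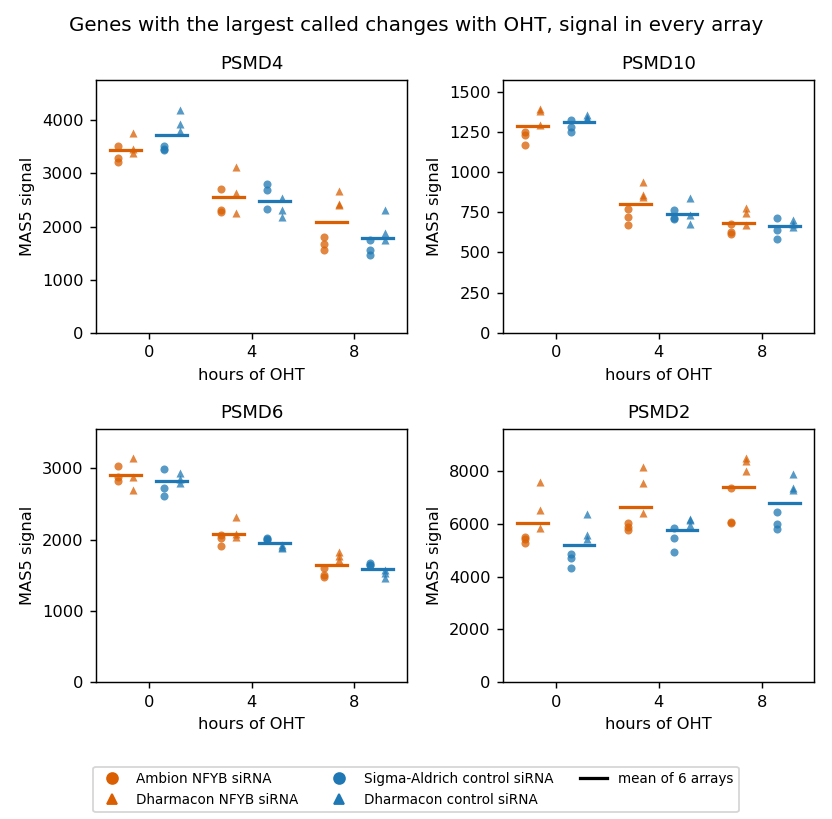
MAS5 signal (vertical axes, from 0) of PSMD4, PSMD10, PSMD6 and PSMD2 in each array against hours of OHT, NFYB siRNA arrays (orange) left of control siRNA arrays (blue); circles are Ambion and Sigma-Aldrich siRNAs, triangles Dharmacon siRNAs, and lines means of 6 arrays. The signals of PSMD4, PSMD10 and PSMD6 are lower at 8 h than at 0 h in both arms, and that of PSMD2 is higher.

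In NFYB siRNA cells most members also went down. At 4 h 25 members were lower and none higher than at 0 h (none at an unadjusted p under 0.05), beside 21.6% and 15% of all probe sets and 32.5% and 21.9% of the brighter ones. At 8 h 27 were lower and 2 higher, beside 29.4% and 18.5% of all and 43.4% and 26.5% of the brighter probe sets in limma. With array medians centred, which put the median change of all probe sets at -0.05 in place of -0.15, the counts at 8 h were 18 lower and 4 higher. The members higher at 8 h were PSMD2 (0.29, adjusted p = 0.021 in limma) and PSME1, a subunit of the 11S activator (0.21, adjusted p = 0.0272 in limma). PSMD10 changed by -0.91, PSMD5 by -0.90, PSMD6 by -0.83 and PSMD4 by -0.75 at 8 h. The median was -0.34 in NFYB siRNA cells and -0.42 in control siRNA cells.

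The responses of the arms were compared by their interaction. No member was called in limma for the difference of the 8 h responses, beside 0.171% of all probe sets called higher and 0.0315% lower (0.278% and 0.0375% of the brighter ones), and 3 members were higher and 1 lower at an unadjusted p under 0.05. The widest difference was that of PSMA5, at 0.37 (SE 0.125, adjusted p = 0.422 in limma), from changes of -0.26 in NFYB siRNA cells and -0.63 in control siRNA cells. All 7 β genes lay above 0, between 0.07 and 0.24, and 11 of 13 core genes did, against 5 of 14 regulatory particle genes. With Dharmacon NFYB siRNA alone 5 members were called higher and 1 lower for this difference (beside 2.6% and 2.59% of all probe sets in limma), namely PSMA5, PSMB2, PSMB3, PSMD1 and PSMD4, and PSMD12.

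Further probe sets of the same genes were examined. There were 22 such probe sets for 15 of the members, and the dimmest, of PSMD5, PSMB1 and PSMD4, had signals of 3.2, 6.73 and 10.8. With knockdown at 8 h 3 of the 22 were called higher, for PSMA1 (0.20 and 0.26) and PSMB1 (0.22), and 1 lower, for PSMB2. Of all probe sets 2.18% were called higher and 2.46% lower (3.53% and 3.87% of the brighter ones). The brightest PSMA1 and PSMB1 probe sets stood at 0.12 and 0.16 and were not called. At 0 h 2 of the 22 were called higher and none lower, beside 1.58% and 2% of all probe sets. These were for PSMA1 (0.18, adjusted p = 0.0324 in limma) and the activator gene PSME3 (0.53, adjusted p = 0.0106 in limma). At 4 h 4 were called higher and none lower (beside 1.48% and 1.45% of all probe sets), 2 each for PSMA1 (0.20 and 0.22) and PSME3 (0.50 and 0.57). The PSME3 probe set called at both times was nearly as bright as the one used for the gene (689, against 700), which stood at 0.27 and 0.17 and was not called. With 8 h of OHT in control siRNA cells 14 of the 22 were lower, 1 higher and 7 not called. Of all probe sets 29.6% were lower and 20.3% higher (44% and 28.2% of the brighter ones). The higher one was a PSMA7 probe set of signal 2160 (0.56, adjusted p = 0.000189 in limma), a gene whose brightest probe set was not called. With 8 h of OHT in control siRNA cells none of the 22 was called against a called direction of its brighter partner. With knockdown at 8 h the PSMB2 probe set was.

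Genes that work with the proteasome were taken from a list of 34 assembly factors, ubiquitin receptors and shuttles, regulators and ubiquitin genes, of which 26 were measured. With knockdown at 8 h 1 of the 26 was higher and none lower in limma, a share near the 3.53% of the brighter probe sets called higher. This was POMP, the maturation factor that assembles the β rings of the core, with a signal of 5989 ± 548 in NFYB siRNA cells and 4913 ± 258 in control siRNA cells (SD, n = 6), or 0.28 on the log2 scale (SE 0.0626, limma adjusted p = 0.0048). At 0 h 2 of the 26 were higher and none lower, beside 1.58% and 2% of all probe sets and 2.39% and 3.14% of the brighter ones. POMP was also higher at 0 h, at 7421 ± 382 with NFYB siRNA and 6354 ± 389 with control siRNA (0.22, adjusted p = 0.0337 in limma). At 4 h 1 was higher and 1 lower, beside 1.48% and 1.45% of all and 2.36% and 2.27% of the brighter probe sets. These were POMP (0.22, adjusted p = 0.0485 in limma) and USP14 (-0.20, adjusted p = 0.0167 in limma). PSMG1, an assembly chaperone of the α ring, was higher at 0 h, at 606 ± 97 with NFYB siRNA and 398 ± 47.5 with control siRNA (0.60, adjusted p = 0.000178 in limma), and stood at 0.17 at 8 h (adjusted p = 0.434 in limma). The transcription factor NFE2L1 stood at -0.14 at 0 h and -0.06 at 8 h with knockdown and was not called (adjusted p = 0.364 and 0.757 in limma).

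With 8 h of OHT in control siRNA cells 13 of the 26 were lower and 7 higher, beside 29.6% and 20.3% of all probe sets and 44% and 28.2% of the brighter ones. Those named here for OHT were chosen after their values were seen. The ubiquitin receptor ADRM1 rose by 1.05 (adjusted p = 3.07e-13 in limma), and PSMG1 and PSMG2, which form a dimer, by 0.76 and 0.33. PAAF1, a chaperone of the regulatory particle, stood at -1.37 on the log2 scale (adjusted p = 7.28e-12 in limma), and NFE2L1 by -0.96 (adjusted p = 2.63e-14 in limma). The thioredoxin TXNL1, which binds the regulatory particle, stood at -0.95, the inhibitor PSMF1 at -0.57 and POMP at -0.37. In NFYB siRNA cells ADRM1 changed by 0.79, PAAF1 by -1.32, NFE2L1 by -0.89 and TXNL1 by -0.89 over the same time.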

How the data were processed

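The 36 samples of U2OS ER-HA-E2F1 cells were hybridised to 1 Affymetrix human expression array each. The deposited values are linear MAS5 signal intensities, which the authors computed in Affymetrix Expression Console (version not given in the sources used here) and scaled per array so that the 2% trimmed mean was 500. Of 22277 probe sets, 62 controls were left out and 22215 were tested. The model in limma 3.58.1 (R 4.3.3) had log2 signals without an offset, a variance trend, 36.3 degrees of freedom and 6 groups of 6 arrays, one per arm and time, since the study pooled both siRNAs of an arm. Tests were two-sided, p-values were adjusted over every probe set tested (Benjamini-Hochberg), and a change was called at an adjusted p under 0.05. Replicates are biological by the labels. The number of arrays limits the precision, and each arm had only 2 siRNAs. Arrays and not siRNAs are the unit of the pooled fit. Its SE and p therefore do not measure how far a result would hold for other siRNAs.

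The members, subunit groups, accessory genes, markers and motifs were chosen with earlier results of these data known. Values in arrays are given for up to 4 members with the largest called increase and up to 4 with the largest called decrease, in each knockdown comparison, the control siRNA response at 8 h and the difference of responses, and for PSMB5, PSMB6, PSMB7 and PSMB8. Those of PSMB3 and PSMD12 were added after their values were seen. Accessory genes called with knockdown at 8 h or 0 h were to be named, and those called at 4 h were added after their values were seen. Of the probe sets, 19064 name 1 gene, 1043 several and 2108 none. One gene is not reported here. Promoters are from RefSeq (GRCh38.p14). The fit was tested on simulated data. Alternatives were an offset of 16, quantile normalization, centring of array medians, a fit on the brighter 60% of probe sets, a fit without trend, a fit of only the compared groups, 12 groups, siRNA as a random block, a replicate block, each siRNA alone, the methods' t-test, the mean of a gene's probe sets, and leaving out arrays and replicate numbers. Replicate numbers did not pair the samples. The methods' t-test was run here on log2 and on linear signal, with p adjusted over all probe sets. The study describes no such adjustment. A core score with the inducible β genes was also tried. A member list with PSMC3IP and PSME3IP1 was added after seeing the annotation.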

Additional observations from a re-analysis of the deposited data

Results flagged for a closer look

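In 84 groups of 6 arrays, over 14 members, 1 array stood apart from the rest of its group by Dixon's test. PSMA3 in Dharmacon control replicate 3 at 8 h had a signal of 7574, and the other control siRNA arrays at 8 h lay between 6398 and 6833. About 5% of such groups would hold such an array by chance.

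The effects of the siRNAs against NFYB differed for 5 of 15 pairs of member and time tested by the difference itself in limma. Ambion minus Dharmacon NFYB siRNA was -0.18 for PSMA2 at 4 h (adjusted p = 0.0472 in limma). At 8 h it was -0.41 for PSMA5 (adjusted p = 0.00435 in limma), -0.32 for PSMB2 (adjusted p = 0.00161 in limma), -0.27 for PSMB3 (adjusted p = 0.0233 in limma) and 0.35 for PSMB5 (adjusted p = 0.00163 in limma).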

How the results depend on the processing

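The counts of members called with OHT kept within 1.5 times of their values under every alternative run. With all probe sets of a gene averaged, the score of core minus regulatory particle differed between arms by 0.10 at 8 h (0.16 with the brightest probe sets) and by -0.02 at 0 h (0.06), and its change by 8 h in control siRNA cells was -0.01 (0.03), so that the last 2 changed sign. Quantile normalization put that last change at 0.08. The counts with knockdown at 0, 4 and 8 h (3, 4 and 6) were 7, 11 and 12 with 12 groups, 11, 19 and 21 with Dharmacon NFYB siRNA alone and 9, 9 and 15 with Sigma-Aldrich control siRNA alone. With only the groups compared they were 1 and 2 at 0 h and 4 h, with Dharmacon control siRNA alone 5 and 8, and with Ambion NFYB siRNA alone 2 at 4 h. By the methods' t-test on log2 signal they were 1, 1 and 3 at 0, 4 and 8 h, and on linear signal 1 at 4 h and 2 at 8 h. The difference of responses gave 1 with 12 groups and 6 with Dharmacon NFYB siRNA alone. The cause was not tested. Without 1 array or 1 replicate number (12 arrays), the counts ranged from 0 to 4 at 0 h, 0 to 4 at 4 h and 2 to 8 at 8 h. With OHT they ranged from 22 to 31 at 4 h and 27 to 29 at 8 h in control siRNA cells, and from 20 to 27 and 21 to 30 in NFYB siRNA cells. The difference of responses gave 0 throughout. The score's difference between arms ranged from 0.03 to 0.1 at 0 h, 0.02 to 0.09 at 4 h and 0.15 to 0.18 at 8 h without 1 replicate number, and its change by 8 h from 0.11 to 0.16 in NFYB siRNA cells and 0.03 to 0.04 in control siRNA cells. Of the calls with knockdown at 8 h, PSMA5 was lost by the methods' t-test on log2 signal (adjusted p = 0.0627 over all probe sets), PSMB6 by the same test (adjusted p = 0.0791) and PSMB7 with Ambion NFYB siRNA alone (adjusted p = 0.069 in limma). PSMA5, PSMB2 and PSMB6 were also lost by the t-test on linear signal. PSMA5 was lost without replicate number 2, PSMB6 without number 1 or 2, and PSMB7 and PSMB3 without any of the 3 numbers. At 4 h PSMA5, PSMB2, PSMA2 and PSMA7 were each lost without any of the 3 numbers, and PSMB2 also by both t-tests. At 0 h PSMA2 and PSMA3 were lost without any of the 3 numbers, and PSMB2 without number 1 or 2. PSMB5 with knockdown at 8 h changed sign to 0.11 with Ambion NFYB siRNA alone and 0.02 with Dharmacon control siRNA alone. PSMB8 with 8 h of OHT changed sign to 0.02 with array medians centred and 0.01 with Dharmacon control siRNA alone.

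Replicate numbers did not pair the samples: same-numbered arrays correlated at a mean r of 0.01 after group means were removed, with 29 of 198 pairs over 0.1. With the replicate block the counts were 3, 3 and 6 with knockdown at 0, 4 and 8 h. With OHT they were 30 and 29 at 4 h and 8 h in control siRNA cells, 25 and 29 in NFYB siRNA cells, and 0 for the difference of responses. PSMA7 at 4 h lost its call (adjusted p = 0.0555 in limma), and no other named call changed. With siRNA as a random block (consensus correlation 0.16) the counts with knockdown were 2, 3 and 5.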
